A study of Mus musculus with 6 samples.

Results

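Transcripts of 51 lysosomal genes were compared in microglia, the resident macrophages of the brain, with and without the gene Nus1. The 51 genes are the rows of the deposited expression table that its KEGG pathway column places in the lysosome pathway, leaving out the cholesterol transporters Npc1 and Npc2, and they make up 51 of 4656 rows. The libraries fall into 2 groups of 3. Ctrl libraries came from Nus1fl/fl mice, whose Nus1 gene carries Cre recombination sites but is intact, and cKO libraries came from conditional Nus1 knockout mice. In both groups the labels give tamoxifen, which switches on inducible Cre recombinases, at 100 mg/kg on 5 days starting at postnatal day 28, and sorting of microglia from the perfused brain 30 days after the last injection. Culture of primary microglia in serum is also described, but whether the sequenced cells were cultured is not stated, nor which Cre was used or whether Ctrl mice carried one.

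The lysosome is the acidic compartment in which cells digest protein, sugar chains and lipid, and microglia load it heavily because they engulf debris, synapses and dying cells. Most of its soluble enzymes are glycoproteins. Their sugar trees are assembled on dolichol in the endoplasmic reticulum, tagged with mannose-6-phosphate in the Golgi, and recognised there by receptors that clathrin and its adaptors carry towards endosomes. A proton pump, the V-ATPase, acidifies the lumen, and heavily glycosylated membrane proteins line the wall and export the products. Nus1 encodes the Nogo-B receptor, a subunit of the prenyltransferase at the start of dolichol synthesis.

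The targeted gene was lower in each cKO library. Nus1 had 59.4, 60.9 and 59.2 TPM in the Ctrl libraries and 14.1, 13.6 and 13.8 TPM in the cKO libraries (TPM, a level scaled for gene length and library size), a log2 fold change of -2.09 ± 0.036 (SE, edgeR adjusted p = 8.7e-34). The deposited table holds only genes that the authors had called at a q-value under 0.05, which were 29.4% of the 15835 genes they tested. Every member had therefore already been called on these libraries, and the number of members called carries no information. What can be read is their direction, level and size, though a gene of low level needed a larger change to have a row. Reads in the rows summed to between 10786150 and 11033144 per library. Libraries of 1 group correlated at 0.998 to 0.999 (Pearson's r of log2 CPM across genes), against 0.975 to 0.976 between the groups. The rows were chosen for differing between the groups, so a lower correlation between the groups was built in. The labels call the libraries biological replicates without naming the animals or pools behind them, so a p-value here speaks only of the spread among these libraries. Of 15 microglial markers 6 had a row, with a summed level of 1177 to 1242 TPM in Ctrl and 1123 to 1196 TPM in cKO, and 5 of the 6 were called lower and 1 higher. Tmem119, P2ry12 and Sall1 were among those with no row, so their levels are unknown here. Border-associated macrophage markers (5 of 10 with a row) summed to 154 to 184 TPM in Ctrl and 138 to 146 TPM in cKO, with 4 lower and 1 higher. Monocyte markers (5 of 8) summed to 2787 to 2928 TPM and 2229 to 2481 TPM, with 3 lower and 1 higher. Astrocyte markers (3 of 8) summed to 219 to 225 TPM in Ctrl and 283 to 287 TPM in cKO, with 2 higher and 1 lower. The 1 of 5 endothelial markers with a row, Pecam1, was called higher, at 0.15 to 0.42 TPM in Ctrl and 0.51 to 0.78 TPM in cKO, and neutrophil, oligodendrocyte and neuron markers had no row. The part of these shifts in the results below was not tested. In bulk RNA, fewer cells of a type and less RNA per cell cannot be told apart.

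Soluble enzymes of sugar and lipid digestion were mostly higher in cKO. Proton pump and sorting genes had more lower than higher calls, as had all tested rows together. For sorting the split depended on the scaling. In edgeR's quasi-likelihood test, at a threshold of 0.05 on the adjusted p, 31 of the 51 members were higher, 16 were lower and 4 did not pass. Over all 4641 tested rows 46.4% were higher and 50.2% lower, 96.7% in all. The median log2 fold change of the members was 0.16, beside -0.077 over all tested rows. No member reached an absolute log2 fold change of 1, 7 reached 0.5, and the median size of change was 0.25, beside 0.27 over all rows. In counts per library size (CPM), all 31 higher members had no overlap between the groups, as had 14 of the 16 lower members; of all tested rows 46.4% were higher without overlap and 50.3% lower, 96.7% in all. Normalization by TMM rested on rows chosen for being changed. With the authors' own size factors every log2 fold change was about 0.04 lower, and 31 members were higher and 20 lower, the same split as in the authors' deposited table. With DESeq2 or upper-quartile scaling 31 were higher and 10 lower.

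**Figure D1:**
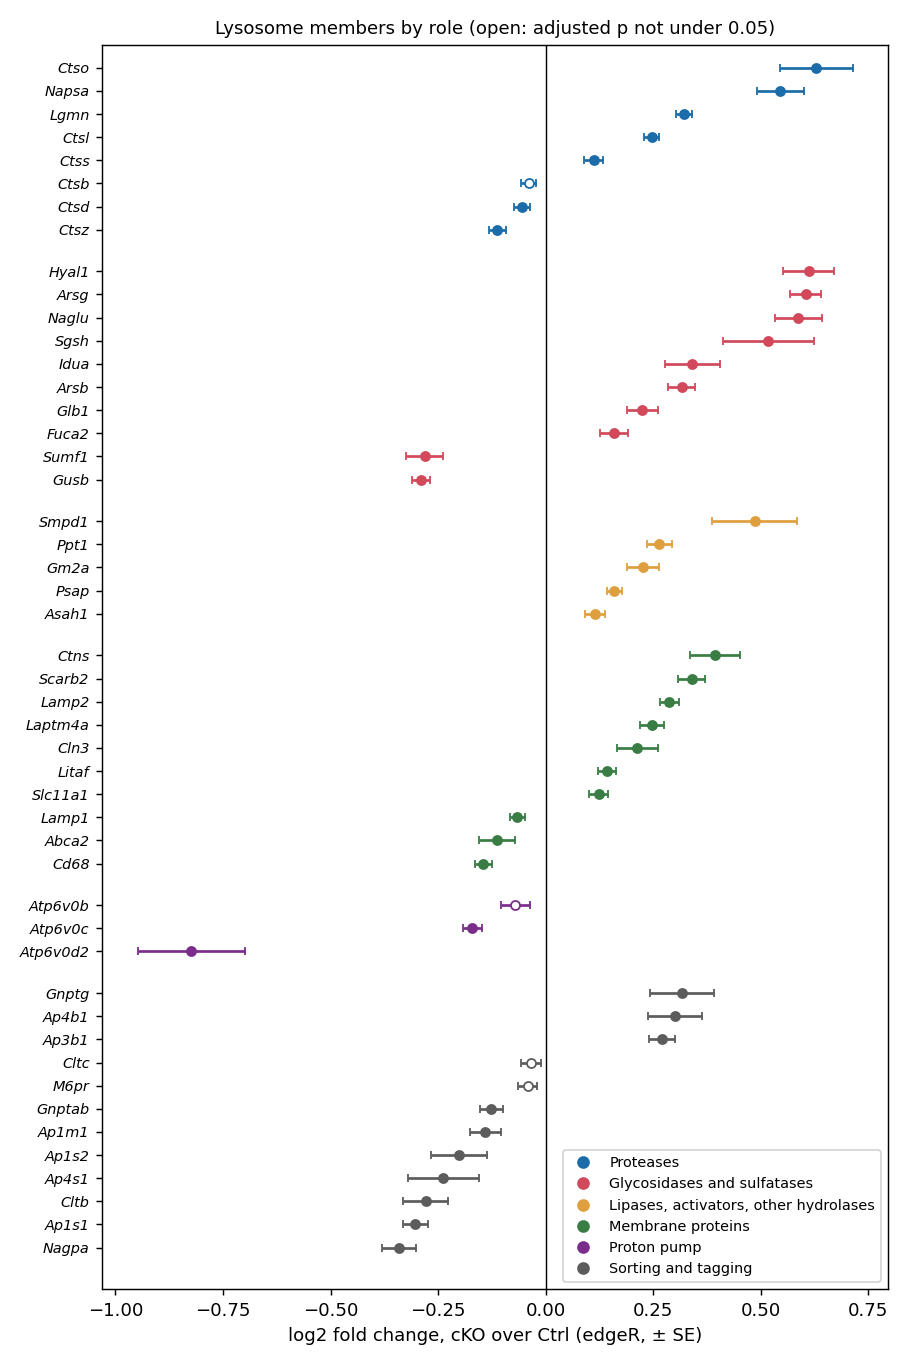
Log2 fold change of cKO over Ctrl for the members named in the text, grouped by role, from edgeR on TMM-scaled counts with bars of ± 1 SE; open circles did not pass an adjusted p of 0.05. Hydrolases and membrane proteins lie mostly to the right of 0, and the proton pump subunits and most sorting genes lie to the left.

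The members' promoters were searched for the E-box CACGTG, the core of the element through which TFEB and related factors are known to switch on lysosomal genes. RefSeq promoter windows (GRCm38.p6, 250 bases before to 50 after a start site) were matched for 42 of the 51 members, with 50 windows. CACGTG, which reads the same on both strands, was present in 14 of the 50 windows (28.0%), beside 11.1% of 4860 windows of genes with a deposited row and 7.15% of all 32851 windows. Members that were higher held it in 8 of 32 windows (25.0%) and members that were lower in 5 of 16 (31.2%), so it was present in members of both directions. Of windows of all deposited rows, 8.62% held it where the authors' value was higher and 13.4% where it was lower. The longer form TCACGTGA, which contains CACGTG, was present in 5 windows of the members (10.0%), from 4 genes. Both windows of Gnptg hold the same site. It was present in 1.75% of windows of genes with a deposited row and in 0.974% of all windows. A match is a description of the letters and not evidence of binding. The 150 bases before the start site are printed for 8 members with a match, chosen after the search to show each role in which this stretch held one, in members that were higher, lower or not called; capitals mark CACGTG, and the sequences are RefSeq's.
Lgmn, chr12:102439093-102439242, minus strand: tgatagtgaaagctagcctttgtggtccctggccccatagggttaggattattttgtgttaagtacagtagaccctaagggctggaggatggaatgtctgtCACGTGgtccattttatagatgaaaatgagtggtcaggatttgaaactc
Ctsd, chr7:142387828-142387977, minus strand: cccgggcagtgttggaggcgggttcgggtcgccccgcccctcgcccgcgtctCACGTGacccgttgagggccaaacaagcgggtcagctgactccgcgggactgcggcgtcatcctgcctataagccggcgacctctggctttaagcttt
Naglu, chr11:101069944-101070093, plus strand: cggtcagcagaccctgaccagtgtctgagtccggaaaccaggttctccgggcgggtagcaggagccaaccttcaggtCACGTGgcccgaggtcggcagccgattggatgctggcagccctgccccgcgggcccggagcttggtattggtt
Sgsh, chr11:119355511-119355660, minus strand: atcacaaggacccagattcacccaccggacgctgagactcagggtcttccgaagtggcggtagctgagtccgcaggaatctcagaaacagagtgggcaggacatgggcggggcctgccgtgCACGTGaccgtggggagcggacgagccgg
Cln3, chr7:126583237-126583386, minus strand: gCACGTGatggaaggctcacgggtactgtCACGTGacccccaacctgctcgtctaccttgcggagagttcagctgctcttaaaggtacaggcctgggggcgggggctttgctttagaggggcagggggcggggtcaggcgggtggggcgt
Lamp1, chr8:13159011-13159160, plus strand: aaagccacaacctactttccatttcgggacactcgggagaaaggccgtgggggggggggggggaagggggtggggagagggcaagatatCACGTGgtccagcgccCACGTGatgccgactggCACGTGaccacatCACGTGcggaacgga
Atp6v0b, chr4:117887330-117887479, minus strand: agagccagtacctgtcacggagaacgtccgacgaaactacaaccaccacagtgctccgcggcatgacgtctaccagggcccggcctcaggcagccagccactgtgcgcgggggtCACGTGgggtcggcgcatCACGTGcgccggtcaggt
Nagpa, chr16:5204013-5204162, minus strand: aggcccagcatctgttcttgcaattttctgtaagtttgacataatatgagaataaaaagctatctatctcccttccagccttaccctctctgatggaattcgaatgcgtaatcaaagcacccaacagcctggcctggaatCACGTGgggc
Lamp1, whose transcript was slightly lower, holds 4 copies in this stretch, Cln3 and Atp6v0b hold 2 each, and the other 5 hold 1 each. Lgmn and Cln3 each have another start site in the table whose window holds no match.

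Of the 8 proteases 5 rose and 2 fell, beside 46.4% higher and 50.2% lower of all tested rows. Legumain (Lgmn, ENSMUSG00000021190, chromosome 12, 102360341 to 102405987, minus strand, mm39) cleaves after asparagine and activates other lysosomal proteases. Lgmn had 796, 776 and 773 TPM in the Ctrl libraries and 961, 963 and 977 TPM in the cKO libraries. Each cKO library was above each Ctrl library, and the log2 fold change was 0.32 ± 0.018 (SE, adjusted p = 2.9e-17), a rise of 25.0%. Permuting the libraries exactly (two-sided) gave p = 0.1 for Lgmn, for Nus1 and for prosaposin, described below, which is the smallest value that 3 libraries against 3 can reach. Cathepsin L (Ctsl), an endopeptidase that also processes the invariant chain in some cells, rose by 0.25 ± 0.018 (SE, log2 scale), with means of 1283 ± 15.3 TPM in Ctrl and 1509 ± 15.5 TPM in cKO (SD, n = 3 each). Cathepsin S (Ctss), the endopeptidase of antigen-presenting cells, rose by 0.11, from 653 to 699 TPM.

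The largest relative changes among the proteases were in those of low level, where a gene needed a larger change to be in the table. Ctso, the cysteine protease cathepsin O (chromosome 3, 81839908 to 81864032, plus strand), had 5.34, 4.85 and 4.66 TPM in the Ctrl libraries and 7.65, 7.73 and 7.33 TPM in the cKO libraries, from 164 to 273 reads per library. Its groups did not overlap, and it rose by 54.6%, the largest rise of any member (log2 fold change 0.63 ± 0.085, adjusted p = 8.8e-08). Napsa, an aspartic protease (chromosome 7, 44221869 to 44236270, plus strand), had 32.4, 33.8 and 31.9 TPM in the Ctrl libraries and 48.0, 47.0 and 46.7 TPM in the cKO libraries and rose by 0.55 ± 0.055 on the log2 scale (adjusted p = 1.2e-10). The 3 most abundant proteases went the other way or did not pass. Cathepsin Z (Ctsz), a carboxypeptidase, had 1489.9, 1517 and 1487 TPM in the Ctrl libraries and 1345, 1414 and 1361 TPM in the cKO libraries. It fell by 0.11 (adjusted p = 6.9e-06), and the lowest Ctrl library was above the highest cKO library.

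Cathepsin D (Ctsd), the main aspartic protease, had 1928, 1860.1 and 1959 TPM in the Ctrl libraries and 1816, 1862 and 1799 TPM in the cKO libraries, so that its groups overlapped in TPM, and its log2 fold change was -0.055 ± 0.018 (adjusted p = 0.015). That call ended with RLE, upper-quartile scaling and DESeq2, where the log2 fold change was -0.019, -0.0089 and -0.019, with limma-trend on FPKM or TPM, and without Ctrl replicate 1 or 3 or cKO replicate 1 or 3. Cathepsin B (Ctsb), the most abundant member, had 2496, 2409.9 and 2502 TPM in the Ctrl libraries and 2349.7, 2444 and 2317 TPM in the cKO libraries and did not pass (-0.04, adjusted p = 0.074). It passed with the authors' size factors (-0.082, adjusted p = 0.000121), with limma-voom (adjusted p = 0.0333), with adjustment over the tested rows alone (adjusted p = 0.0217) and without cKO replicate 2 (-0.051), and the sign turned with upper-quartile scaling (0.0067). The proteases summed to 8694, 8530 and 8693 TPM in Ctrl and 8727, 8960 and 8710 TPM in cKO. The means differed by 1.85%, and the smallest cKO sum lay just above the largest Ctrl sum.

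**Figure D2:**
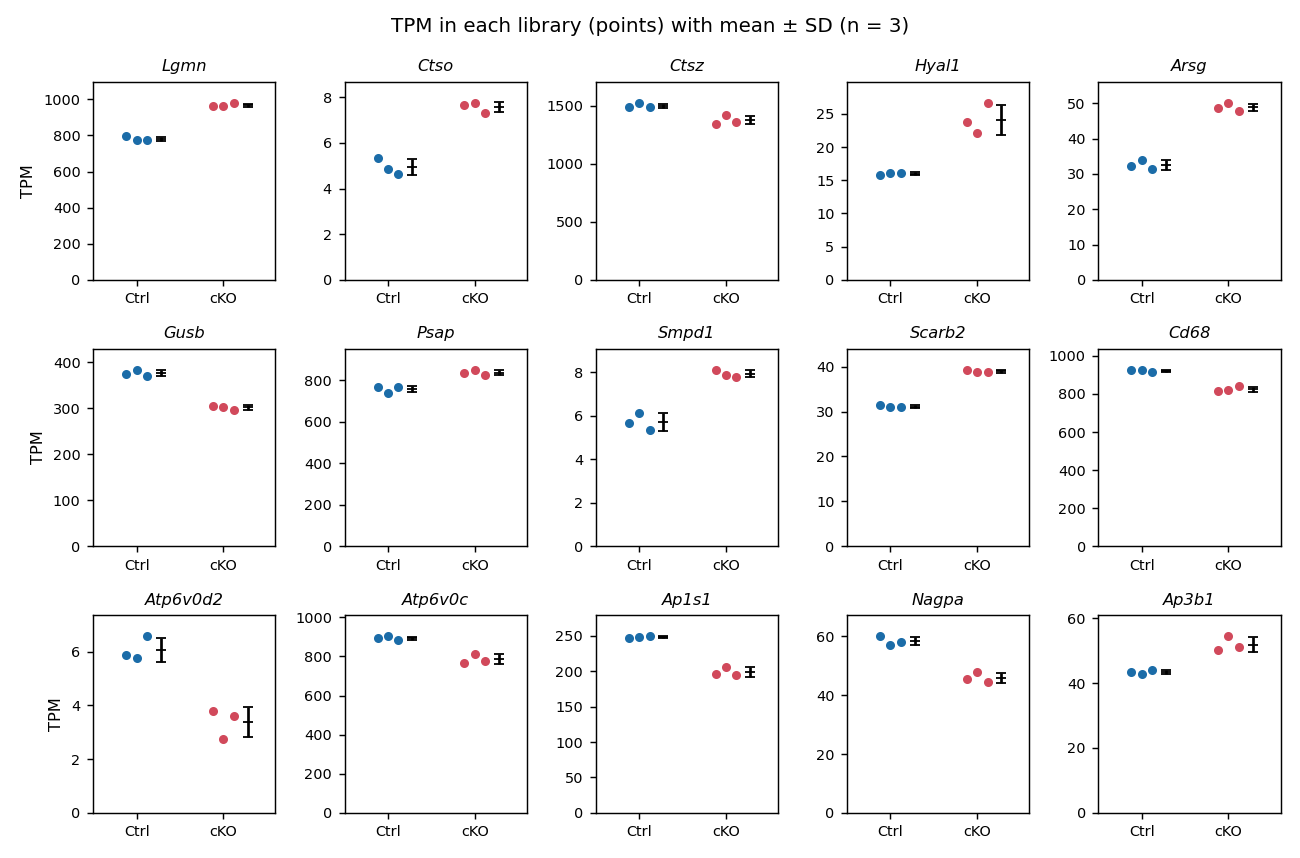
TPM of 15 members in each library, with Ctrl in blue and cKO in red, and the mean ± SD (n = 3) beside each group; every axis starts at 0. In all 15 panels the points of the groups do not overlap. Except for Psap, the members shown came from a rule that asked for no overlap in CPM, so their separation was fixed by the choice. Of all tested rows 96.7% had no overlap in CPM. Atp6v0d2 shows the widest relative gap.

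Enzymes that cut sugar chains rose almost throughout. Among 13 glycosidases, sulfatases and their helper, 11 rose, 2 fell and the median log2 fold change was 0.31. Over all tested rows 46.4% were higher and 50.2% lower. Under 10 TPM in Ctrl, the level of Idua and Sgsh, 83.6% of all called rows were higher. Hyaluronidase 1 (Hyal1, chromosome 9, 107453019 to 107464624, plus strand), which cuts hyaluronan, had 15.8, 16.1 and 16.1 TPM in the Ctrl libraries and 23.7, 22.1 and 26.6 TPM in the cKO libraries. The cKO values were more spread than the Ctrl values, yet all lay higher, and the rise was 52.8% (log2 fold change 0.61 ± 0.06, adjusted p = 6.3e-11). Arylsulfatase G (Arsg, chromosome 11, 109364159 to 109464156, plus strand), which removes sulfate from heparan sulfate, had 32.2, 34.0 and 31.3 TPM in the Ctrl libraries and 48.7, 49.9 and 47.8 TPM in the cKO libraries. It rose by 0.60 ± 0.036 (adjusted p = 7.1e-17). Naglu (chromosome 11, 100960859 to 100968498, plus strand), the N-acetylglucosaminidase of heparan sulfate digestion, had 19.1, 18.4 and 20.3 TPM in the Ctrl libraries and 29.9, 28.3 and 27.7 TPM in the cKO libraries. Its groups were also apart, and it rose by 0.59 ± 0.054 (adjusted p = 1.4e-11).

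The other enzymes that rose did so by less than these 3. Sulfamidase (Sgsh), another heparan sulfate enzyme, rose by 0.52 from the lowest level of any member (2.59 to 3.68 TPM, 110 to 173 reads per library). The iduronidase Idua rose by 0.34 and the N-acetylgalactosamine sulfatase Arsb by 0.32. The beta-galactosidase Glb1 was at 0.22 and Fuca2, a fucosidase known mainly as a plasma enzyme, at 0.16.

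Gusb and Sumf1 fell. Beta-glucuronidase (Gusb, chromosome 5, 130011278 to 130031890, minus strand) acts on several glycosaminoglycans, the long sugar chains of the cell surface and matrix. It was the most abundant of the 13. Gusb had 374, 384 and 372 TPM in the Ctrl libraries and 306, 304 and 297 TPM in the cKO libraries. Every cKO library was lower, and Gusb fell by 18.2% (log2 fold change -0.29 ± 0.021, adjusted p = 1.2e-14). Sumf1 is not a lysosomal hydrolase but resides in the endoplasmic reticulum, where it makes the catalytic residue of all sulfatases. It had 45.5, 42.3 and 44.7 TPM in the Ctrl libraries and 37.5, 34.2 and 37.2 TPM in the cKO libraries and fell by 0.28 ± 0.043 (adjusted p = 9.6e-07), while the sulfatases Arsg, Arsb and Sgsh rose.

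The summed level of the enzymes moved less than most of them singly, since Gusb is abundant and fell. All 13 together rose in sum by 3.75%, from 974 ± 1.65 to 1010 ± 10.2 TPM.

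The lipid-digesting enzymes and their activators all rose, beside 46.4% higher of all tested rows. Prosaposin (Psap, ENSMUSG00000004207, chromosome 10, 60113436 to 60138379, plus strand) is the precursor of the saposins, small proteins that present sphingolipids to their hydrolases. Psap had 765, 739 and 766 TPM in the Ctrl libraries and 836, 849 and 824 TPM in the cKO libraries. The groups did not overlap, and the rise of 11.7% (log2 fold change 0.16 ± 0.018, adjusted p = 1.2e-09) was smaller than that of Lgmn at a similar level. Acid sphingomyelinase (Smpd1, chromosome 7, 105203567 to 105207596, plus strand) had 5.66, 6.13 and 5.35 TPM in the Ctrl libraries and 8.10, 7.89 and 7.78 TPM in the cKO libraries. Its rise was the largest of the 5 (0.49 ± 0.099, adjusted p = 9.9e-05), on 125 to 189 reads per library. Ppt1, which removes fatty acids from proteins, had 97.0, 96.5 and 92.7 TPM in Ctrl and 116, 112 and 113 TPM in cKO, and rose by 0.26. The ganglioside activator Gm2a had 27.0, 25.4 and 27.8 TPM in Ctrl and 31.2, 31.2 and 30.3 TPM in cKO, and rose by 0.23. The acid ceramidase Asah1 rose by 0.11, from 207 to 222 TPM. The 5 genes summed to 1101, 1069 and 1103 TPM in Ctrl and to 1215, 1223 and 1193 TPM in cKO, a difference of 10.9%.

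Members that KEGG also lists under sphingolipid metabolism include Asah1, Glb1, Psap and Smpd1, and these rose by 8.29%, 16.9%, 11.7% and 40.0%. Of the 3 members annotated to neuronal ceroid lipofuscinosis, a group of storage diseases of nerve cells, Ppt1 and Cln3 rose and Ctsd fell by 0.055.

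Membrane proteins went both ways, with 7 of 10 higher and 3 lower, or 7 and 1 with upper-quartile scaling or DESeq2. With edgeR and TMM, 46.4% of all tested rows were higher and 50.2% lower. Ctns (chromosome 11, 73073959 to 73089869, minus strand), the exporter of cystine, had 14.9, 16.1 and 15.1 TPM in the Ctrl libraries and 19.8, 19.3 and 19.8 TPM in the cKO libraries and rose by 0.39 ± 0.058 on the log2 scale (adjusted p = 5.3e-07). Scarb2, which encodes the membrane protein LIMP-2, had 31.5, 30.9 and 30.9 TPM in the Ctrl libraries and 39.2, 38.9 and 38.7 TPM in the cKO libraries, with little spread within either group, and rose by 0.34 ± 0.032 (adjusted p = 1.7e-11). Lamp2, needed for chaperone-mediated autophagy and for fusion of autophagosomes, had 227, 211 and 217 TPM in the Ctrl libraries and 261, 257 and 261 TPM in the cKO libraries. It rose by 0.29 ± 0.021 (adjusted p = 5.3e-14), and its groups were apart. Laptm4a, a small protein of the late endosomal and lysosomal membrane, rose by 0.25, and Cln3, the Batten disease protein, by 0.21. The endosomal adaptor Litaf rose by 0.14 and Slc11a1, which pumps iron and manganese out of the phagosome, by 0.12.

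The other major wall protein, Lamp1, moved against Lamp2. Lamp1 had 713, 711 and 724 TPM in the Ctrl libraries and 681, 677 and 673 TPM in the cKO libraries. It fell by 4.45%, with groups that did not overlap (log2 fold change -0.066 ± 0.018, adjusted p = 0.0035). Its call ended with RLE (-0.029), upper-quartile scaling (-0.019) and DESeq2 (-0.029), whereas Lamp2 stayed higher under all 20 alternatives. Cd68 (chromosome 11, 69555039 to 69556996, minus strand), a relative of the Lamp proteins used as a macrophage marker, had 925, 924 and 913 TPM in the Ctrl libraries and 816, 820.2 and 839 TPM in the cKO libraries and fell by 0.15 ± 0.02 (adjusted p = 1.2e-07). The lipid transporter Abca2 had 10.6, 11.2 and 10.6 TPM in Ctrl and 9.67, 9.94 and 9.87 TPM in cKO, at -0.11 ± 0.042 (adjusted p = 0.035). Its call ended under 9 alternatives, among them RLE (-0.077), DESeq2 and the omission of Ctrl replicate 2 (-0.084) or of cKO replicate 1 (-0.11), 2 (-0.11) or 3 (-0.12). The sums of the 10 genes overlapped between the groups, at 2632, 2609.9 and 2632 TPM in Ctrl and 2603, 2621.5 and 2621 TPM in cKO.

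**Figure D3:**
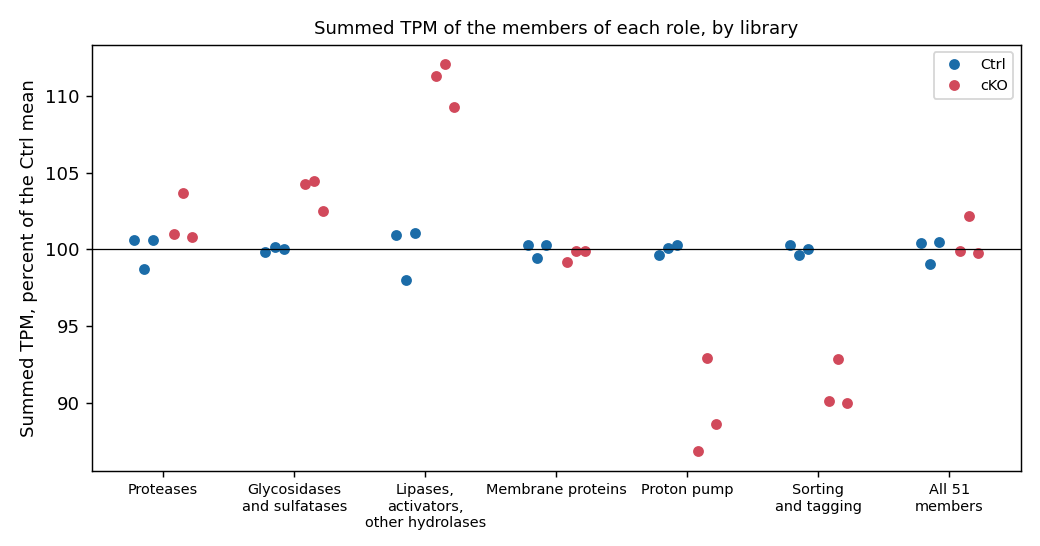
Summed TPM of the members of each role in each library, as a percentage of the Ctrl mean of that role; the axis does not start at 0. The cKO points lie above the Ctrl points for proteases, glycosidases with sulfatases and lipid enzymes, below them for the proton pump and for sorting, and among them for membrane proteins and for all 51 members.

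The 3 proton pump subunits with a KEGG lysosome entry belong to V0, the membrane sector, and 2 of them fell. Atp6v0d2 (chromosome 4, 19876838 to 19922566, minus strand), the d subunit isoform of macrophages and osteoclasts, had 5.87, 5.76 and 6.57 TPM in the Ctrl libraries and 3.79, 2.76 and 3.59 TPM in the cKO libraries. Every cKO library was lower. Atp6v0d2 fell by 43.5%, the largest fall of any member (log2 fold change -0.82 ± 0.12, adjusted p = 8e-07), on 69 to 164 reads per library. Atp6v0c, the subunit of the proton-carrying ring, had 892, 902 and 884 TPM in the Ctrl libraries and 765, 814 and 777 TPM in the cKO libraries, and fell by 0.17 ± 0.022 (adjusted p = 3.9e-08). Processed pseudogenes of Atp6v0c can share its reads, so its value carries that uncertainty. Another ring subunit, Atp6v0b, had 318, 314 and 334 TPM in Ctrl and 291, 317 and 301 TPM in cKO. Its groups overlapped and it did not pass (-0.07, adjusted p = 0.14), although it did with the authors' size factors (-0.11, adjusted p = 0.00534), with adjustment over the tested rows alone (adjusted p = 0.0422) and without cKO replicate 2 (-0.12). The 3 subunits summed to 1216, 1222 and 1224 TPM in Ctrl and to 1059.5, 1134 and 1081 TPM in cKO. Of 25 pump genes listed by hand 3 more had a row, and of these Atp6v0e was at -0.29 (adjusted p = 4.3e-08), Atp6v1f at -0.13 (adjusted p = 0.017) and Atp6v1c1 at -0.041 (adjusted p = 0.23). Of these 6 pump genes with a row 4 were lower and 2 did not pass. At least 100 TPM in Ctrl was reached by 5, a level at which only 24.5% of all called rows were higher with TMM.

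Of the 12 genes of enzyme tagging and sorting 3 were higher, 7 were lower and 2 did not pass. Over all tested rows 46.4% were higher and 50.2% lower. With upper-quartile scaling or DESeq2 the split was 3 higher and 4 lower, with RLE 3 and 5, and with the authors' size factors 3 and 9. The mannose-6-phosphate tag is made in steps. Gnptab encodes the catalytic chains of the phosphotransferase and Gnptg an accessory chain, and Nagpa uncovers the tag. Nagpa (chromosome 16, 5013144 to 5024891, minus strand) had 60.0, 57.2 and 58.0 TPM in the Ctrl libraries and 45.5, 47.9 and 44.5 TPM in the cKO libraries, which was the largest fall of the set (-0.34 ± 0.039, adjusted p = 2.8e-09). Gnptab fell by 0.13, from 55.9 to 50.6 TPM. Gnptg rose instead, with 19.3, 19.1 and 19.5 TPM in Ctrl and 23.9, 23.6 and 22.5 TPM in cKO (0.32 ± 0.074, adjusted p = 0.0006, 240 to 308 reads per library). The receptor M6pr, which binds the tag, had 184, 188 and 187 TPM in Ctrl and 176, 181 and 179.9 TPM in cKO and did not pass (-0.042, adjusted p = 0.26); it passed with the authors' size factors (-0.084, adjusted p = 0.00323), and its sign turned with upper-quartile scaling (0.0046).

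Among the coats, all subunits of adaptor AP-1 with a row were lower. AP-1 sorts between the Golgi and endosomes. Its small subunit gene Ap1s1 (chromosome 5, 137063847 to 137077208, plus strand) had 247, 248.52 and 248.98 TPM in the Ctrl libraries and 196, 206 and 194 TPM in the cKO libraries, with the groups well apart (-0.30 ± 0.029, adjusted p = 3.3e-11). Ap1s2 was at -0.20 and Ap1m1, the medium subunit, at -0.14, but these calls were less secure. That of Ap1s2 ended under RLE, upper-quartile scaling and DESeq2 and without Ctrl replicate 1 (-0.19), Ctrl replicate 3 (-0.19) or cKO replicate 3 (-0.17), and that of Ap1m1 under upper-quartile scaling and DESeq2. AP-3 carries membrane proteins to lysosomes, and its large subunit gene Ap3b1 rose, with 43.4, 42.9 and 43.9 TPM in Ctrl and 50.2, 54.4 and 51.1 TPM in cKO (0.27 ± 0.031, adjusted p = 1.9e-09).

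AP-4, a Golgi adaptor, gave values in both directions. Its large subunit gene Ap4b1 had 14.6, 13.1 and 14.4 TPM in Ctrl and 18.1, 17.8 and 15.9 TPM in cKO and rose by 0.30 ± 0.062. Its small subunit gene Ap4s1 had 29.6, 27.3 and 25.3 TPM in Ctrl and 23.7, 25.1 and 25.5 TPM in cKO, with overlapping groups, and stood at -0.24 ± 0.082 (adjusted p = 0.023). The call of Ap4s1 ended under 10 of the 20 alternatives, among them the omission of Ctrl replicate 1 (-0.22) or 2 (-0.13, adjusted p = 0.443) or of cKO replicate 2 (-0.20) or 3 (-0.24). Without Ctrl replicate 3 it was -0.35. The clathrin light chain Cltb had 40.6, 39.8 and 43.96 TPM in Ctrl and 30.9, 37.3 and 33.3 TPM in cKO and fell by 0.28 ± 0.052 (adjusted p = 2.5e-05). The clathrin heavy chain Cltc had 135, 135 and 133 TPM in Ctrl and 128, 126 and 134 TPM in cKO and did not pass (-0.034, adjusted p = 0.47); its sign turned with RLE, upper-quartile scaling and DESeq2, and it passed with the authors' size factors (-0.076) and without cKO replicate 3 (-0.067). The 12 genes summed to 927, 921 and 924 TPM in Ctrl and to 833, 858 and 831 TPM in cKO, so that the sum fell by 9.04%.

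The sum over all 51 members did not separate the groups. It was 15541, 15327 and 15549.6 TPM in Ctrl and 15452.5, 15813 and 15434 TPM in cKO, so that the rises and falls nearly offset each other in total RNA, with means 0.607% apart.

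**Figure D4:**
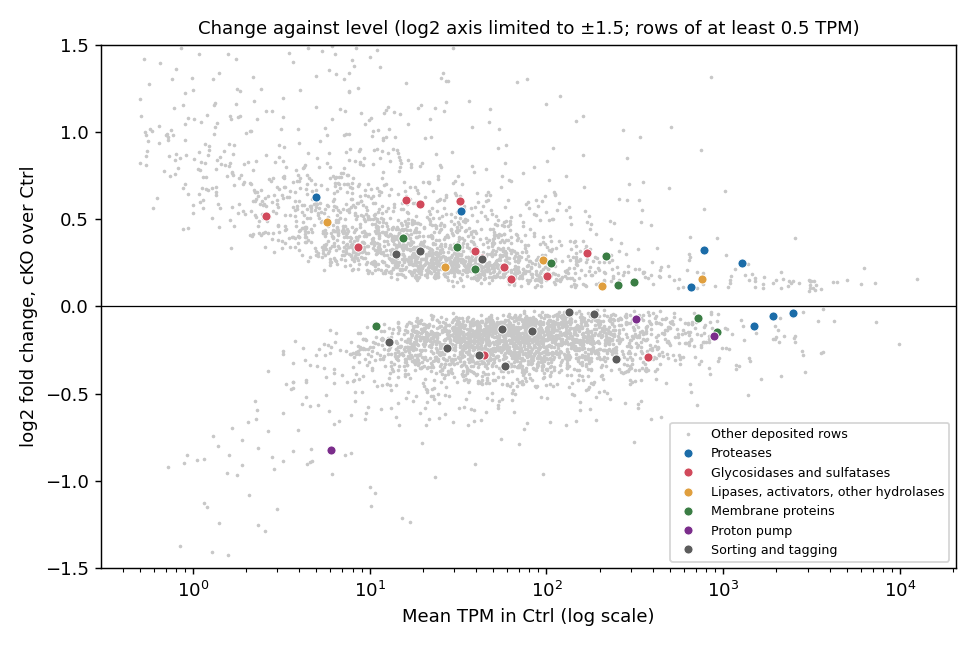
Log2 fold change of cKO over Ctrl against the mean TPM in Ctrl (log scale), with members coloured by role over the other deposited rows in grey; 4537 of 4641 tested rows fall inside the limits of at least 0.5 TPM and ±1.5 on the log2 axis. Changes shrink towards high levels for members and other rows alike, and the empty band around 0, where the authors made no calls, lies off-centre on the TMM scale.

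Level and change were related among the members as in the table at large. Across the 51 genes the Spearman correlation of the Ctrl level with the log2 fold change was -0.405, and with its size -0.642, beside -0.429 and -0.546 across the 4641 rows; genes are not independent replicates. A gene of low level needs a larger change to be called and so to be in the table. The 5th percentile of the authors' absolute log2 fold change was 0.243 for rows under 10 TPM and 0.085 for rows of 100 TPM or more. Direction was therefore set beside rows of like level. At 100 TPM or more, 11 members were higher and 7 lower with TMM, while 24.5% of all called rows of that level were higher. The 4 members that did not pass, Atp6v0b, Cltc, Ctsb and M6pr, all lie at this level. They were lower with the authors' size factors, for which the share of all rows by level was not counted. Between 10 and 100 TPM, 16 were higher and 8 lower, beside 46.1% of called rows higher. Under 10 TPM, 4 were higher and 1 lower, beside 83.6%.

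Lysosomal genes outside the KEGG entry were taken from a list written by hand with earlier results of these data known. Of its 156 genes 64 had a row, and 14 of these were not members. Of the 14, 7 rose and 6 fell, which is near the 46.4% higher and 50.2% lower of all tested rows. Progranulin (Grn), a lysosomal glycoprotein that binds prosaposin, rose from 641 to 782 TPM (0.30 ± 0.019). The nucleic acid exonuclease Pld4 had 109.8, 105 and 106 TPM in Ctrl and 153, 148 and 148 TPM in cKO and rose by 0.50, and the acid amidase Naaa by 0.22. The amino acid transporters Slc36a1 and Slc38a9 rose by 0.33 and 0.38, the nucleoside transporter Slc29a3 by 0.30 and the abundant glycoprotein Gpnmb by 0.14, from 2469 to 2709 TPM. The cathepsin inhibitors Cst3 and Cst7 fell by 0.097 and 0.19, and the transporter Mfsd1 by 0.082. Heparanase (Hpse), which cuts heparan sulfate, fell by 0.93, from 2.88 to 1.49 TPM. The heparan sulfate enzymes Naglu, Sgsh and Arsg rose, while Gusb, which KEGG also places in heparan sulfate degradation, fell.

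Of 20 genes that regulate lysosome formation and nutrient sensing at its surface, 10 had a row. Of these 6 rose, 3 fell and Mtor did not pass (-0.076, adjusted p = 0.069). Beside the 46.4% higher and 50.2% lower of all tested rows, these few counts show no direction of the set. Tfeb and Tfe3, the main activators of lysosomal genes, had none. Their relative Mitf rose by 0.23, from 14.2 to 16.4 TPM, and the repressor Zkscan3 by 0.27. Fnip2 and Fnip1, partners of folliculin, rose by 0.35 and 0.15, and Stat3 by 0.27. Subunits of the Ragulator complex, which anchors mTORC1 to the lysosome, differed in direction. Lamtor2 rose by 0.27, while Lamtor1 and Lamtor5 fell by 0.13 and 0.20, as did the GTPase Rraga by 0.16.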

How the data were processed

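Per the file headers, the authors deposited 4 values per gene in each library, namely expected counts, FPKM, TPM and normalized counts. The deposited table also gives the authors' log2 fold change (cKO over Ctrl) with its p-value and q-value. The submitters' processing notes name mm39, DESeq2 (1.34.0) and Bowtie2 (2.4.5), while the counting tool and its strand setting are not stated. The deposited expected counts are not normalized. The deposited FPKM and TPM values are scaled by the authors for gene length and library size, and the rows used here hold 59.4% to 60.3% of all TPM. The deposited normalized counts, a signal, are the expected counts after rounding up, over a size factor of 0.987 to 1.02 for the library. Adjusting the authors' p-values by Benjamini-Hochberg over 15835 genes gave their q-values. The authors' log2 values are quoted only where named. A further 8 columns of averages were not used.

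Expected counts were rounded and fitted over the whole table with edgeR 4.0.16 (R 4.3.3; quasi-likelihood, TMM, filterByExpr, which kept 4641 genes and all 51 members), and p-values were adjusted over 15835 genes, taking genes without a row to have larger ones. SE is the absolute log2 fold change over the square root of F. The fit was tested on simulated data in which only some rows were changed, equally up and down, with adjustment over the tested rows alone. That test does not cover a table whose rows were all chosen for being changed. Alternatives used DESeq2 1.42.0, limma 3.58.1 (voom; trend on log2(FPKM + 1) and log2(TPM + 1)), other scalings, filters, rounding and adjustment, a replicate block and each library left out. Sums, motif searches and plots were made in Python 3.11.15 (NumPy 2.4.6, matplotlib 3.10.9, pandas 2.3.3 and SciPy 1.17.1).

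The members, roles and lists were chosen with earlier results of these data known; the role of Fuca2 and the printed promoters were chosen after the values were seen. A few members are counted in all totals but not reported singly here. Values in every library are given for Lgmn, Psap and, per role, up to 3 members called higher and 3 called lower with the largest change, at least 5 CPM and no overlap in CPM, and for some others. Within a group, the median chi-square between libraries over genes with enough reads in the pair was 0.573 to 0.795, above the median that counting error alone gives, so no pair was merged.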

Additional observations from a re-analysis of the deposited data

How the results depend on the processing

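Of the 51 members 41 kept their direction and their side of the threshold under all 20 alternatives; the 10 that did not were Abca2, Ap1m1, Ap1s2, Ap4s1, Atp6v0b, Cltc, Ctsb, Ctsd, Lamp1 and M6pr. The 31 higher members were called higher under each of the 20. The count of higher calls over all rows was about as steady, at 2155 with edgeR and TMM and 2121 to 2168 under the alternatives. How many of all rows kept their call was not counted. The count of lower members was 10 with upper-quartile scaling or DESeq2, 11 with RLE and 20 with the authors' size factors, and 13 to 16 with a library left out. DESeq2 called 1509 of all rows lower, against 2332 with edgeR; of all called rows 58.8% were then higher, and of called members 75.6%, against 48.0% and 66.0%. The median of the members was 0.20 with RLE and with DESeq2, 0.21 with upper-quartile scaling, 0.12 with the authors' size factors, and 0.16 to 0.17 with a library left out; RLE, upper-quartile scaling and the authors' factors moved the median of all rows by 0.036, 0.046 and -0.042. Signs turned for Cltc with RLE (0.0022), DESeq2 (0.0023) and upper-quartile scaling (0.012), and with upper-quartile scaling for Ctsb (0.0067) and M6pr (0.0046). The TMM, RLE, upper-quartile and DESeq2 factors were computed here from the deposited rows alone, all chosen for being changed. The authors' size factors come from their own run, whose q-values cover 15835 genes. The size factors of a full table could not be recomputed here. Same-numbered libraries correlated at -0.050 to 0.052 in their deviations from the group means, and other pairs at -0.072 to 0.112. No pairing by number was seen, but with 3 libraries per group this cannot exclude a shared litter or day. With the replicate block 31 members were higher and 16 lower, with a median of 0.16, and 2155 and 2296 of all rows. Leaving out 1 library left all 31 higher members called, with 2153 to 2159 of all rows higher and 2126 to 2246 lower. Genes without a row have unknown values, and counting error is largest for Sgsh, Smpd1 and Atp6v0d2.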
